A study of Saccharomyces cerevisiae with 14 samples.

Results

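The transcripts of 9 yeast genes of reductases of aldehydes and ketones, known or putative, were followed in a strain that makes artemisinic acid. Genes are counted here by their ORF names on the slides. AAD6 and AAD16 stand for a single annotated locus, a pseudogene (described below), which is thus counted under both names. The 9 genes, of 6040 ORFs in all, were 7 members of the aryl-alcohol dehydrogenase family, AAD3 (YCR107W), AAD4 (YDL243C), AAD6 (YFL056C), AAD10 (YJR155W), AAD14 (YNL331C), AAD15 (YOL165C) and AAD16 (YFL057C), together with GRE2 (YOL151W) and YML131W. All genes with an AAD name were taken, while YPL088W, a putative aryl-alcohol dehydrogenase without one, stands in a list below. The set was chosen by its measured values as well, since several of these transcripts were higher in the producer on these slides. Their levels are therefore given as a description and were not tested.

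The producer, EPY330, and the strain it was set against, EPY338, share the background of EPY300, a derivative of BY4742 with his3 and leu2 deleted, in which lys2 and ura3 were repaired. Both carry a truncated HMG-CoA reductase gene in 2 copies, the upc2-1 allele and ERG20, all under the galactose-inducible GAL1 promoter, and ERG9 under the MET3 promoter. Both also hold a high-copy pESC-Leu2d plasmid with amorphadiene synthase (ADS), the P450 AMO and its reductase (CPR), in galactose medium (YPG). In EPY330 AMO is active. In EPY338 a conserved cysteine of AMO is changed to glycine and the enzyme is inactive (AMO-KO). Apart from this change, both strains carry the same plant genes and the same engineered yeast genes. The paper reports that, in the strains before the repair, fewer cells kept the plasmid with active AMO than the one with inactive AMO. That was in non-selective medium, at a later time than the slides here. Plasmid retention was not known for the pools used here. The share of cells holding the plasmid could differ between strains and times, and was not tested. RNA of 5 transformants of each strain was pooled at 24, 48 and 72 h after induction, and each pair of pools was hybridized to 4 slides at 24 h and 5 slides at 48 and 72 h. Replicate slides are thus repeats of 1 pair of pools, and the same transformants were sampled at every time. The SD given below is one of hybridization and does not measure the spread between clones. The plant genes are not among the ORFs on the slides, and the state of AMO could not be checked from these data.

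AMO oxidizes amorphadiene in steps, through an alcohol and an aldehyde, to artemisinic acid. Yeast holds many enzymes that reduce aldehydes and ketones to alcohols with NADPH. The AAD genes are named for their similarity to the aryl-alcohol dehydrogenase of the lignin-degrading fungus Phanerochaete chrysosporium, belong to the aldo-keto reductase superfamily, and are dispersed near the chromosome ends. Gre2p is an NADPH-dependent reductase of methylglyoxal and of 3-methylbutanal, the aldehyde from leucine that yields isoamyl alcohol, and GRE2 is widely used as a stress-induced gene. YML131W belongs to the medium-chain dehydrogenase/reductase family. The AAD genes are close paralogs, and cDNA of one can bind to the spot of another on a cDNA slide, so the part of each gene in its spot's signal was not separated here.

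Each value is a lowess-normalized log2 ratio of the strains on 1 slide, turned here to log2(EPY330/EPY338), so that 0 is an equal level, a value above 0 means more of the transcript in EPY330, and 1 is a 2-fold difference. The slides held values for 5466 to 5940 ORFs each, with medians of -0.02 to 0.01 and SDs over the ORFs of 0.467 to 0.876, the widest being replicate B at 48 h. Pearson's r between slides of a time point, across ORFs that are not independent replicates, was 0.687 to 0.885 at 24 h, 0.364 to 0.857 at 48 h and 0.439 to 0.785 at 72 h. The dyes were not swapped, so a dye effect of a single gene cannot be told apart from a difference between the strains. RNA came from whole cultures, in which more cells with a transcript and more transcript per cell cannot be told apart. Of the 9 genes, 8 had a value on every slide, and AAD15 had none on replicate B at 48 h and replicate C at 72 h.

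At 24 h, 3 of the 9 genes (AAD6, AAD10 and GRE2) had a mean ratio above 2-fold higher in the producer, beside 5.08% of all ORFs. At 48 h there were 4 (AAD6, AAD10, GRE2 and YML131W), beside 5.75% of all ORFs, and at 72 h AAD6 alone, beside 1.87%. None of the 9 was above 2-fold lower in the producer at any time, beside 1.84% of all ORFs at 24 h, 3.5% at 48 h and 0.69% at 72 h. In order of time, the 9 genes had median log2 ratios of 0.44, 0.83 and 0.30, beside -0.01, -0.02 and -0.02 over all ORFs. AAD6, AAD10, GRE2 and YML131W were above 0 on all 14 slides, 4 of the 8 genes with a value on every slide, beside 8.28% of such ORFs. Since the genes were chosen with these ratios known, nothing is read from the shares.

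**Figure D1:**
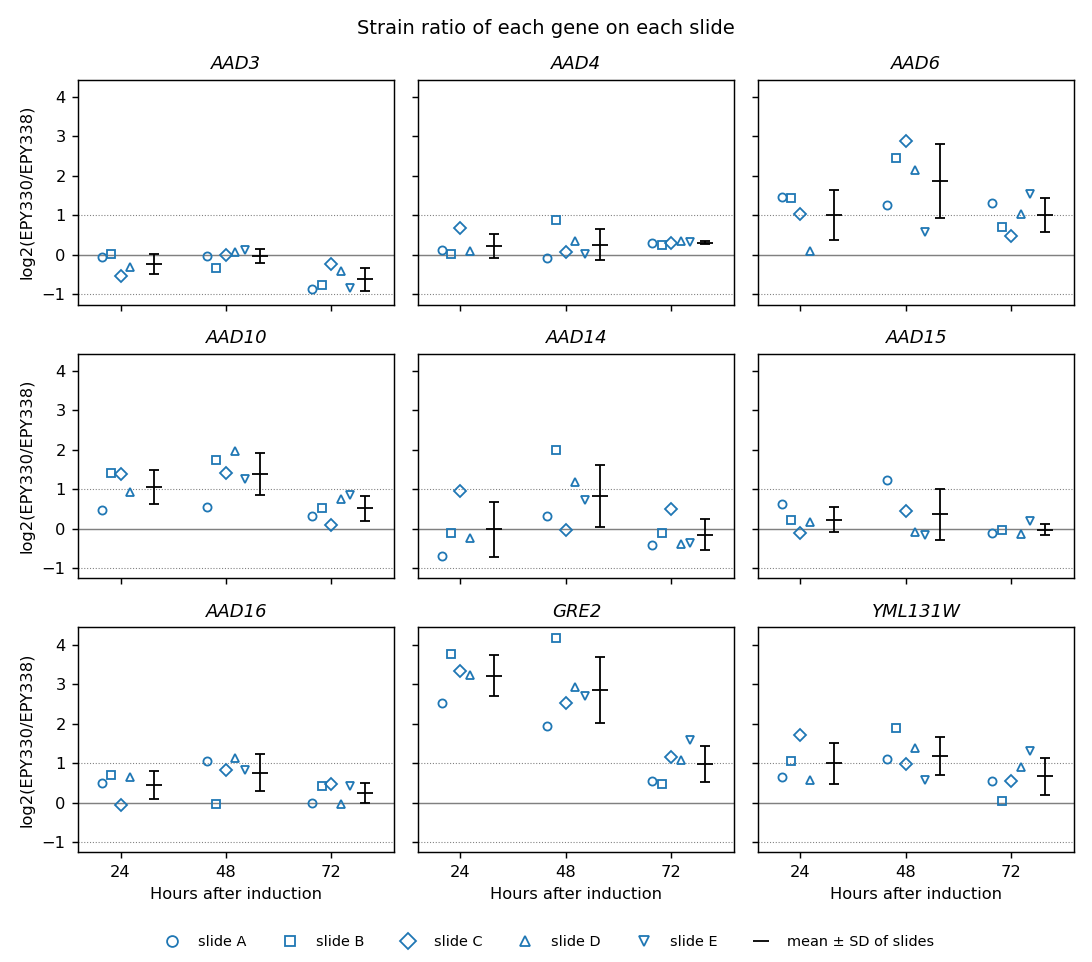
Log2(EPY330/EPY338) of each of the 9 genes on each slide against hours after induction, with marker shapes for replicate slides A to E and bars for the mean ± SD of the slides. GRE2 lies highest at 24 and 48 h and drops at 72 h, AAD6, AAD10 and YML131W stay above 0 on all 14 slides, and the other AAD genes lie nearer to 0 (dotted lines mark 2-fold).

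GRE2, on chromosome XV, had the highest mean ratios of the set at the first 2 time points. The log2 ratio was 2.52, 3.76, 3.34 and 3.23 on the 24 h slides A to D, 1.94, 4.17, 2.52, 2.92 and 2.69 on the 48 h slides A to E, and 0.55, 0.47, 1.16, 1.08 and 1.59 on the 72 h slides A to E. Each 24 and 48 h slide lay above each 72 h slide, while the 24 and 48 h slides overlapped. The means were 3.21 ± 0.51 at 24 h (SD, n = 4), 2.85 ± 0.82 at 48 h and 0.97 ± 0.46 at 72 h (SD, n = 5 each), which are 9.27-, 7.20- and 1.96-fold higher levels in the producer. At both 24 and 48 h the gene ranked 4 from the top, among 5861 and 5721 ORFs, and at 72 h it ranked 128 of 5945. Its 72 h mean lay just under the 2-fold limit, and was 1.07 without 72 h replicate A and 1.10 without 72 h replicate B. It was 0.92, 0.94 and 0.82 without 72 h replicate C, D and E. GRE2 was higher than YML131W, the other reductase outside the AAD family in this set, on 14 of 14 slides, while AAD6 was above GRE2 on 3 of 14.

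AAD6, on chromosome VI, was the highest of the AAD genes at 48 and 72 h. It gave 1.45, 1.43, 1.04 and 0.11 at 24 h (slides A to D), 1.25, 2.45, 2.89, 2.15 and 0.58 at 48 h and 1.30, 0.70, 0.48, 1.04 and 1.55 at 72 h (slides A to E). The slides of the 3 time points overlapped, and single slides were low, D at 24 h and E at 48 h. The means were 1.01 ± 0.63 at 24 h, 1.86 ± 0.94 at 48 h and 1.02 ± 0.43 at 72 h, or 2.01-, 3.64- and 2.02-fold. AAD6 ranked 294 of 5861 ORFs at 24 h, 43 of 5721 at 48 h and 104 of 5945 at 72 h. The means at 24 and 72 h lie close to the 2-fold limit: without 24 h replicate A, B or C the 24 h mean was 0.859, 0.868 or 0.997 and under the limit, and without 72 h replicate A or E the 72 h mean was 0.94 or 0.88.

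AAD16 is the neighbouring ORF of AAD6. In the RefSeq annotation of assembly R64 the ORF name YFL057C is a synonym of YFL056C and the locus is a pseudogene, so the spots labelled AAD6 and AAD16 stand for stretches of a single annotated locus. AAD16 gave 0.48, 0.69, -0.06 and 0.66 at 24 h, 1.05, -0.03, 0.81, 1.14 and 0.82 at 48 h, and -0.01, 0.43, 0.47, -0.05 and 0.41 at 72 h, with means of 0.44 ± 0.35, 0.76 ± 0.46 and 0.25 ± 0.26. It was thus above 0 on 10 of 14 slides, and its slides overlapped between the times. The 2 spots did not carry the same ratio: AAD6 was above AAD16 on 12 of 14 slides, by 0.56 ± 0.76 on the log2 scale at 24 h (SD, n = 4), 1.10 ± 1.17 at 48 h and 0.76 ± 0.58 at 72 h (SD, n = 5 each). The SD of this difference was larger than its mean at the first 2 times, and at 72 h AAD6 was the higher on 5 of 5 slides.

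AAD10, on chromosome X, was the second AAD gene above 2-fold. Its values were 0.48, 1.40, 1.38 and 0.94 at 24 h, 0.55, 1.75, 1.41, 1.96 and 1.25 at 48 h and 0.33, 0.53, 0.09, 0.75 and 0.86 at 72 h. No slide at 72 h reached 2-fold, against 2 of 4 at 24 h and 4 of 5 at 48 h, although the ranges overlapped. Mean log2 ratios were 1.05 ± 0.44 (24 h), 1.39 ± 0.54 (48 h) and 0.51 ± 0.31 (72 h), which are 2.07-, 2.61- and 1.43-fold and ranks of 260, 129 and 757. Without 24 h replicate B or C the 24 h mean was 0.94 in each case, under the limit.

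YML131W, on chromosome XIII, was above 2-fold at 48 h only. It gave 0.65, 1.05, 1.71 and 0.57 at 24 h, 1.09, 1.88, 0.97, 1.38 and 0.57 at 48 h and 0.54, 0.05, 0.54, 0.90 and 1.30 at 72 h, and all 3 time points overlapped. Its means were 0.995 ± 0.521 at 24 h, 1.18 ± 0.49 at 48 h and 0.67 ± 0.47 at 72 h (1.99-, 2.26- and 1.59-fold). The 24 h mean fell just short of the limit, which AAD6 had just passed. It was 1.11 without 24 h replicate A and 1.14 without 24 h replicate D, but 0.98 without replicate B and 0.76 without replicate C.

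The other 4 AAD genes did not reach a 2-fold mean at any time. AAD14, on chromosome XIV, had the widest scatter of the 4, with -0.68, -0.11, 0.96 and -0.23 at 24 h, 0.31, 1.99, -0.03, 1.18 and 0.72 at 48 h and -0.42, -0.11, 0.50, -0.39 and -0.35 at 72 h. Its 48 h mean of 0.83 ± 0.79 stood between -0.02 ± 0.69 at 24 h and -0.15 ± 0.39 at 72 h, and 4 of 5 slides at 48 h were above 0, against 1 of 4 at 24 h and 1 of 5 at 72 h. The 48 h mean was thus within about its own SD of 0, and the slides of all times overlapped. AAD4, on chromosome IV, was slightly above 0 on 13 of 14 slides, at 0.13, 0.02, 0.69 and 0.09 (24 h), -0.07, 0.89, 0.08, 0.34 and 0.03 (48 h) and 0.31, 0.24, 0.30, 0.35 and 0.33 (72 h). Its 72 h slides were the closest together of any gene and time in the set, with a mean of 0.30 ± 0.04, beside 0.23 ± 0.31 at 24 h and 0.25 ± 0.39 at 48 h.

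AAD15, near the end of chromosome XV, gave 0.63, 0.23, -0.12 and 0.18 at 24 h, 1.23, 0.45, -0.08 and -0.17 at 48 h on slides A, C, D and E, and -0.11, -0.03, -0.13 and 0.19 at 72 h on slides A, B, D and E. With means of 0.23 ± 0.31, 0.36 ± 0.64 and -0.02 ± 0.15 (SD, n = 4 each), none of the times lay apart from 0 by more than the SD of its slides. AAD3, on chromosome III, was the only one of the 9 to lie below 0 on every slide of a time point. Its values were -0.07, 0.02, -0.54 and -0.31 at 24 h, -0.03, -0.32, 0.01, 0.07 and 0.12 at 48 h and -0.87, -0.75, -0.24, -0.41 and -0.84 at 72 h. At 72 h the mean was -0.62 ± 0.28, a 1.54-fold lower level in the producer and rank 5597 of 5945 ORFs, after -0.22 ± 0.25 at 24 h and -0.03 ± 0.17 at 48 h. The spots of the family were therefore not uniform on these slides. AAD6 and AAD10 were above 2-fold, AAD16, AAD14, AAD4 and AAD15 lay between, and AAD3 was lower at 72 h. This order is that of the values as deposited. AAD6 and AAD16, spots of a single annotated locus, themselves lay 0.56, 1.10 and 0.76 apart on average at 24, 48 and 72 h. Differences between spots were thus not separated from differences between the genes of the family. With the trend along ORF names (described below) removed, AAD14 lay below AAD4 at each time and near AAD3 at 72 h (-0.48 and -0.46). AAD10 was then under 2-fold at 24 h (0.80).

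**Figure D2:**
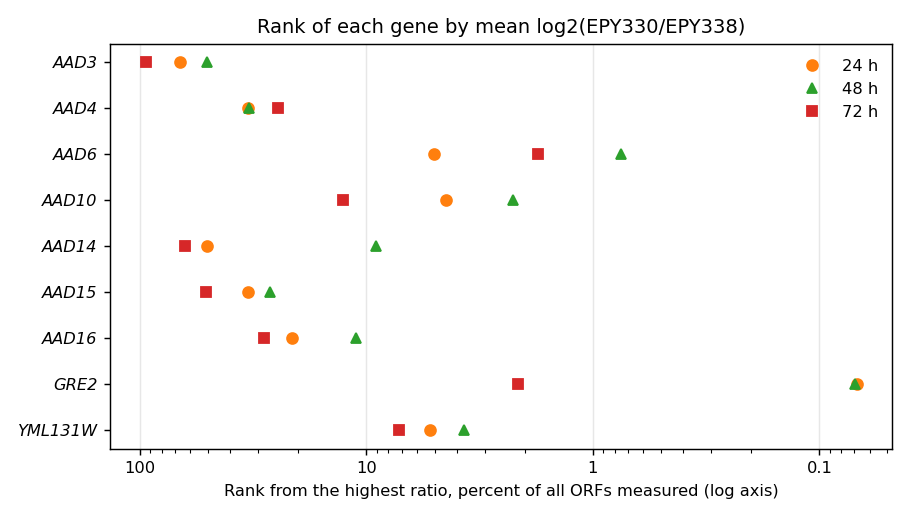
Rank of each of the 9 genes by mean log2(EPY330/EPY338), counted from the highest ratio and given as a percent of all ORFs measured at that time, on a log axis with the highest ratios at the right (circles 24 h, triangles 48 h, squares 72 h). GRE2 sits at 0.0682% and 0.0699% at 24 and 48 h and at 2.15% at 72 h, AAD6 moves between 5.02% and 0.752%, and AAD3 at 72 h is at 94.1%.

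The changes between time points were taken from a limma fit over all 5652 ORFs with at least 3 slides at each time (Benjamini-Hochberg adjusted p under 0.05). Each time point holds 1 pair of pools, so the fit sets a difference between pools against the error of hybridization alone, and passing the test says nothing of the spread between clones or cultures. The changes are built from the ratios that chose the genes and are read as a description, as are the counts. A change here is one of the strain ratio, and says nothing of which strain's level moved. Below, a ratio is counted as fallen or risen only where its change passed the test. From 48 to 72 h the ratio fell for 4 of the 9 genes, beside 16.3% of all ORFs, and rose for none of them, beside 13.9%. The 4 were GRE2 (-1.88, SE 0.34), AAD14 (-0.99, SE 0.34), AAD10 (-0.87, SE 0.25) and AAD3 (-0.59, SE 0.17). The GRE2 fall was the one seen in every slide, each 72 h slide lying below each 48 h slide, as for 6.43% of all ORFs. For AAD6 (-0.85, SE 0.37), AAD16 (-0.51, SE 0.22), YML131W (-0.51, SE 0.27), AAD15 (-0.38, SE 0.27) and AAD4 (0.05, SE 0.19) the change did not pass the test.

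From 24 to 72 h the fall of GRE2 alone passed the test, with a change of -2.24 (SE 0.36), beside 9.16% of all ORFs. No rise among the 9 passed, beside 5.17%. Each 72 h slide of GRE2 was below each 24 h slide, as for 10.5% of all ORFs. AAD10 changed by -0.54 (SE 0.27) over this interval, AAD3 by -0.40 (SE 0.18) and AAD6 by 0.01 (SE 0.40), and none of these passed. From 24 to 48 h no change of the 9 genes passed the test in limma, beside 0.619% of all ORFs with a higher and 0.372% with a lower ratio. At an unadjusted p under 0.05 there were 2 of the 9, AAD6 at 0.85 (SE 0.40) and AAD14 at 0.85 (SE 0.36), and 402 of all ORFs, of which 56 passed after adjustment. GRE2 changed by -0.36 (SE 0.36) over the same interval, within its error.

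The falls from 48 to 72 h differed in whether they passed the test with a slide left out. Leaving out a slide also moved the number of calls over all ORFs, 1709 with all slides. It ranged from 1079 (without 48 h replicate D) to 2380 (without 48 h replicate B). A lost call therefore need not mean a smaller change. Both GRE2 changes passed whichever slide was left out. The AAD14 change did not pass without 48 h replicate B, D or E or without 72 h replicate A, B, D or E, where it lay between -0.70 and -1.02. The AAD10 change did not pass without 48 h replicate D (-0.73, adjusted p = 0.0521 in limma) or 72 h replicate C (-0.77, adjusted p = 0.0504). The AAD3 change did not without 72 h replicate A (-0.53, adjusted p = 0.0513 in limma). These p-values lay just over the limit. Conversely, the AAD6 change passed without 48 h replicate E (-1.17), and that of AAD16 without 48 h replicate B (-0.71). Replicate B at 48 h, the slide with the widest spread over all ORFs, held the highest 48 h value of AAD4, AAD14, GRE2 and YML131W and the lowest of AAD3 and AAD16. At 72 h replicate E held the highest value of 5 of the 9 genes, AAD6, AAD10, AAD15, GRE2 and YML131W.

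Over the slides, the 2 genes of the set whose ratios lay closest together were AAD10 and YML131W, with a root mean square difference of 0.414 on the log2 scale over 14 slides, AAD10 being the higher on 6. AAD15 and AAD16 followed at 0.531 (12 slides) and AAD4 and AAD15 at 0.541 (12 slides). AAD6 differed from AAD10 by 0.711 and was above it on 11 of 14 slides. The slides share 3 pairs of RNA pools, so these values describe likeness and have no test.

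The same measure over all ORFs with at least 12 slides in common named the 3 nearest to each gene that was above 2-fold. GRE2 was nearest to PDR16 (0.540), a phosphatidylinositol transfer protein gene, then to ICT1 (0.804), which encodes a lysophosphatidic acid acyltransferase, and SCC2 (0.806), which encodes a cohesin loader. The mean ratios of PDR16 were 2.99, 3.08 and 1.34 at 24, 48 and 72 h, likewise lowest at 72 h. AAD6 was nearest to MTC7 (0.545), RTA1 (0.579) and RPS21A (0.594, 12 slides), of which RTA1 is named for resistance to 7-aminocholesterol. The ratios of RTA1 were 0.89, 1.54 and 0.96, highest at 48 h like those of AAD6. The nearest to AAD10 were URA10 (0.256), SSO2 (0.262) and CCP1 (0.276), the mitochondrial cytochrome c peroxidase. YML131W was nearest to FMP23 (0.250), ADH6 (0.267), an NADPH-dependent alcohol dehydrogenase, and YTA12 (0.268). The ratios used for this measure still hold the trend along ORF names described below. Likeness through a shared trend was not separated from likeness of the transcripts.

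Values were at hand for genes next to AAD3, AAD4, AAD6 (with AAD16), AAD10, AAD14, GRE2 and YML131W on the chromosome, and not for those beside AAD15 or on the second side of AAD3. The neighbours of GRE2, FRE7 and DCP1, had means of -0.16 and -0.20 at 24 h, where GRE2 was at 3.21, and 0.02 and 0.60 at 48 h. AAD4, AAD6 (with AAD16), AAD10 and AAD14 each lie beside a copy of the THI5 family, which acts in thiamine pyrimidine synthesis and whose members are near-identical to each other. These copies had ratios of -0.67, -0.60 and -0.57 at 24, 48 and 72 h (THI13, beside AAD4), -0.09, -0.09 and -0.10 (THI5, beside AAD6), 0.29, 0.32 and 0.01 (THI11, beside AAD10) and 0.86, 0.73 and 0.45 (THI12, beside AAD14). The thiamine genes beside AAD6 and AAD10, the 2 AAD genes above 2-fold, were thus near 0 or slightly above it. Although the copies are near-identical, their spots did not carry the same ratio (-0.67 for THI13 and 0.86 for THI12 at 24 h). The medians of ORFs at set places from AAD4, AAD6, AAD10 and AAD14 in the order of names, described below, were -0.40, -0.04, 0.26 and 0.44 at 24 h. Whether the place of a spot gave these differences was not tested, and differences among the AAD spots have the same limit. On the other side of AAD6, the amino acid permease gene AGP3 was at -0.49, -0.88 and -0.36. The neighbours of YML131W, COS3, at 0.96, 0.85 and 0.20, and ERO1, the oxidase of disulfide formation in the endoplasmic reticulum, at 0.87, 0.75 and 0.44, had ratios near its own at 24 h. RPD3, the histone deacetylase gene on the other side of AAD14, was at 0.84, 0.86 and 0.45, so that both neighbours of AAD14 were near its ratio at 48 h but above it at 24 and 72 h. Of the rest, RDS1 beside AAD3 was at -0.77, -0.78 and -0.37, YDL242W beside AAD4 at -1.05, -1.25 and -0.13, and YJR154W beside AAD10 at -0.69 (2 slides), -0.30 and -0.37.

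The ratio of each gene was also set against that of ORFs at set places from it in the order of ORF names. They were those up to 6 places before or after the gene, and those at 44 to 50 or 91 to 97 places from it. The choice of places was not tested, nor was a trend measured over all ORFs. On each slide the median ratio of these ORFs was taken, and is called the trend along ORF names. Around YML131W this median was 0.46, 0.49 and 0.36 at the 3 times, so that with the trend subtracted the gene was at 0.54, 0.69 and 0.31 and below 2-fold at every time. GRE2 kept 3.10, 2.61 and 0.85 and AAD6 had 1.05, 1.92 and 1.12. AAD10 was at 0.80, 1.24 and 0.46 and thus under 2-fold at 24 h, and the counts above 2-fold became 2, 3 and 1 at 24, 48 and 72 h. For AAD4 the median was -0.40, -0.42 and -0.20, and the ratio of the gene without the trend was 0.63, 0.67 and 0.51. AAD14 was lowered to -0.46, 0.58 and -0.48, while AAD3 was at 0.03 and 0.31 at the first 2 times and remained below 0 at 72 h (-0.46, below 0 on 5 of 5 slides).

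**Figure D3:**
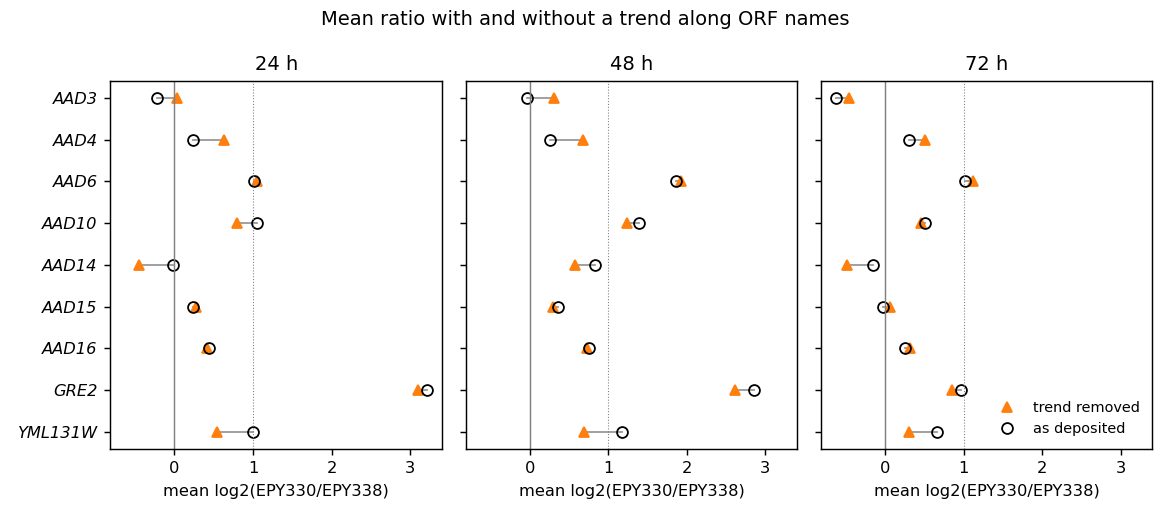
Mean log2(EPY330/EPY338) of each of the 9 genes at 24, 48 and 72 h after subtraction of the trend along ORF names (triangles) and as deposited (open circles), with dotted lines at 2-fold. GRE2 and AAD6 stay on the same side of the 2-fold lines, YML131W moves below the 2-fold line at 48 h (0.69 against 1.18), and AAD4 moves up.

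Genes of related function were examined in 7 lists with 77 different genes, OYE2 and OYE3 standing in both the reductase and the Yap1 list. The counts of these lists are read beside the shares of all ORFs given above, and no list is said to stand apart from them. Among 18 other carbonyl and aldehyde reductases, 3 were above 2-fold higher in the producer at 24 h, 1 at 48 h and none at 72 h, and none was above 2-fold lower, with list medians of 0.39, 0.33 and -0.11. YPL088W, a putative aryl-alcohol dehydrogenase outside the AAD names, was at 2.01 ± 0.31 at 24 h (SD, n = 4), 0.99 ± 0.76 at 48 h and 0.63 ± 0.27 at 72 h. ADH6, which reduces aromatic and branched aldehydes with NADPH, was at 1.30 ± 0.52, 1.34 ± 0.30 and 0.51 ± 0.56. The third was ARI1, a short-chain reductase related to GRE2, at 1.08 ± 0.64, 0.50 ± 0.52 and -0.20 ± 0.38. The 2 other relatives of GRE2 in the list, YGL039W and YDR541C, had mean ratios below 0 at all times, between -0.03 and -0.53. From 48 to 72 h the ratio fell for 4 of the 18 in the limma fit (ADH6, GCY1, YNL134C and OYE2), beside 16.3% of all ORFs, and from 24 to 72 h it fell for 4 (ARI1, YPL088W, YNL134C and OYE2), beside 9.16%. None of the 18 rose in either interval, beside 13.9% and 5.17% of all ORFs.

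In the list of 8 alcohol dehydrogenases and butanediol dehydrogenases, ADH3, the mitochondrial enzyme, was above 2-fold higher at each time (1.41 ± 0.27, 1.46 ± 0.50 and 1.31 ± 0.37). ADH2, the enzyme that oxidizes ethanol, was at -0.21 ± 0.16, 0.85 ± 0.38 and 1.18 ± 0.22, and its ratio rose from 24 to 72 h (adjusted p = 0.000608 in limma). ADH4 was lower in the producer at -1.15 ± 0.48, -0.998 ± 0.742 and -1.16 ± 0.46. From 48 to 72 h the ratio of 1 of the 8 fell (SFA1, the glutathione-dependent formaldehyde dehydrogenase, at -0.79 ± 0.29 at 72 h) and none rose. The list medians were -0.16, 0.37 and 0.35. Of 6 aldehyde dehydrogenases, which oxidize aldehydes to acids, 2 were above 2-fold higher at 48 h and none at 24 or 72 h: ALD4, the mitochondrial enzyme, at 1.53 ± 0.55 and ALD6, the cytosolic NADPH-forming one, at 1.25 ± 0.58. ALD6 was at 0.21 ± 0.26 at 72 h, and its fall from 48 h passed the test (adjusted p = 0.00659 in limma), as did a rise of ALD2 (0.51 ± 0.20 at 72 h). The medians of the 6 were 0.37, 0.36 and 0.28.

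Of 12 genes of the Ehrlich pathway, by which amino acids are broken down to fusel aldehydes and alcohols, 1 was above 2-fold higher at 48 h (BAT2, a branched-chain aminotransferase, 1.12 ± 0.58) and 1 at 72 h (PDC6, a pyruvate decarboxylase isozyme, 1.08 ± 0.56 on 4 slides). Their medians were 0.04, -0.0035 and -0.13. From 48 to 72 h the ratio of 3 of the 12 rose and that of 3 fell. Of 6 genes that supply NADPH, 1 was above 2-fold at 48 h, the cytosolic isocitrate dehydrogenase gene IDP2 at 1.35 ± 0.22, beside 0.68 ± 0.27 at 24 h and 0.19 ± 0.38 at 72 h. The ratio of 4 of the 6 fell from 48 to 72 h (GND1, GND2, IDP1 and IDP2), beside 16.3% of all ORFs, and that of none rose, beside 13.9%. GND2 had risen from 24 to 48 h, to 0.56 ± 0.32 at 48 h against -0.38 ± 0.17 at 24 h, and the medians of the 6 were 0.06, 0.64 and -0.07.

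Among 15 target genes of Yap1p, the activator of the oxidative stress response, 3 were above 2-fold higher at 24 h, 4 at 48 h and none at 72 h, beside 5.08%, 5.75% and 1.87% of all ORFs, with medians of 0.58, 0.59 and 0.08. CCP1 was at 1.31 ± 0.28, 1.58 ± 0.49 and 0.46 ± 0.59, the glutathione transferase gene GTT2 at 1.43 ± 0.32, 1.45 ± 0.61 and 0.45 ± 0.67, and the thioredoxin gene TRX2 at 1.20 ± 0.28, 1.40 ± 0.55 and 0.56 ± 0.34. The fourth, YKL071W, had 1.32 ± 0.62 at 48 h. The ratio of 7 of the 15 fell from 48 to 72 h, beside 16.3% of all ORFs, and of none rose, beside 13.9%. TRR1, the thioredoxin reductase gene, was the only one above 2-fold lower, at -1.06 ± 0.40 at 72 h, and was named after its values were seen. In 14 transcription factors of stress and drug responses, of which 13 were measured at 72 h, MSN2 was above 2-fold higher at 48 h (1.12 ± 0.18) and MSN4 above 2-fold lower (-1.30 ± 0.94 on 4 slides). YAP1 itself was at 0.64 ± 0.30, 0.50 ± 0.16 and 0.33 ± 0.12, and the list medians were -0.19, -0.22 and -0.12. The ratio of MSN2 fell from 48 to 72 h, and that of PDR8, at -0.12 ± 0.24 at 72 h, was the 1 of the 13 to rise.

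**Figure D4:**
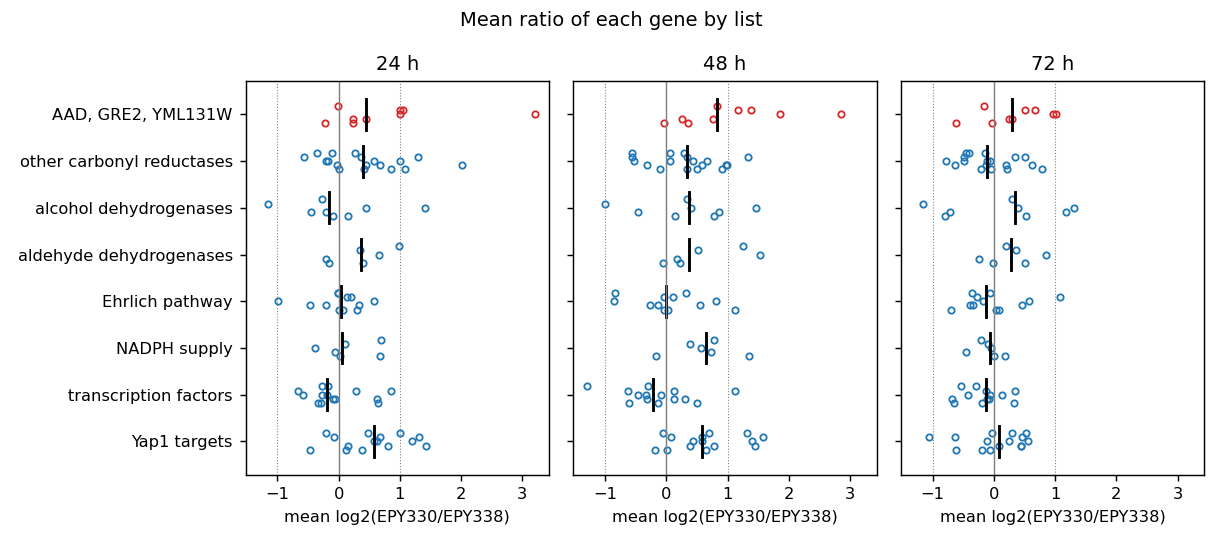
Mean log2(EPY330/EPY338) of each gene (open circles) in the set of 9 genes and in 7 lists of related function at 24, 48 and 72 h, with the list median as a vertical bar and dotted lines at 2-fold. The GRE2 point stands alone at 3.21 at 24 h and 2.85 at 48 h, and at 72 h the medians of the reductase and Yap1 lists are near 0.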

How the data were processed

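Labeled cDNA of EPY330 (Alexa555) and EPY338 (Alexa647) was compared on 14 two-colour slides. The authors read the fluorescence in GenePix Pro, left out spots that were artifacts, weak in both channels or mostly missing, applied lowess normalization in BRB-ArrayTools and deposited 1 log2 ratio (EPY338/EPY330) for each ORF and slide, without intensities. The depth of signal over background was therefore not assessed. The number of slides limits only the precision of the ratio of a single pair of pools, and more slides would not measure the spread between clones. The sign was turned here, and slides were averaged for ORFs with at least 3 values at a time point. Changes between time points were tested in limma 3.58.1 (R 4.3.3), with time point as group and two-sided p-values adjusted by the Benjamini-Hochberg method over all ORFs. The fit was also run on simulated slides with independent noise, a setting that does not cover noise shared between slides. Tables were made with pandas 2.3.3 and numpy 2.4.6 and plots with matplotlib 3.10.9, in Python 3.11.15. The paper's SAM test of the strain ratio was not run, since that ratio chose the genes.

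The 9 genes and the lists were chosen with earlier results of these data known, and no list was tested as a set. The text names the 9 genes, up to 4 genes of each list above 2-fold at any time, the 3 nearest ORFs by root mean square difference for genes above 2-fold, and the adjacent genes. Other list genes (such as ALD2, SFA1, GCY1 and YAP1) are named outside this rule, after their values were seen. RefSeq names (R64) matched 5546 of 6040 ORFs and 8 of the 9 genes. Its positions served only to find the chromosome and adjacent genes, and none are printed. Sequences were not used here.

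The replicate letters were not taken to pair slides, since at each time they number slides of a single pair of pools. Deviations from the time point means of same-letter slides correlated at -0.53 to 0.64 over ORFs (median 0.07, 13 pairs), and those of slides with different letters at -0.53 to 0.67 (median -0.03). All pairs of letter A and of letter D were above 0.1. The 2 highest values were those of 24 h slide C with 48 h slide B and of 24 h slide A with 48 h slide A. The main fit took the slides as independent and did not model such shared deviations. Alternatives were the median in place of the mean over slides, centring of each slide, the trend along ORF names removed, a value on every slide, the replicate block, the slides of only 2 times, and leaving out each slide. Slides scaled to equal spread were added after the data were seen.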

Additional observations from a re-analysis of the deposited data

Results flagged for a closer look

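Of 27 groups of slides (9 genes at 3 times), 2 held a slide whose gap to the nearest of the others, as a share of the whole range, was over Dixon's 95% limit, which is higher for 4 slides than for 5. Chance gives about 1 in 20 groups. AAD4 at 24 h had 0.69 on replicate C, against 0.02 to 0.13 on the other slides, with 0.847 of the range in the gap. AAD16 at 48 h had -0.0266 on replicate B, against 0.81 to 1.14 on the others, with 0.72 of the range in the gap. Both slides also held the highest or lowest value of other genes of the set at that time.

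The strain ratio differed between 48 and 72 h in limma (adjusted over all ORFs) for GRE2, with a change of -1.88, AAD14, with -0.99, AAD10, with -0.87, and AAD3, with -0.59. It differed between 24 and 72 h for GRE2, with -2.24. These values are from the ratios that chose the genes.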

How the results depend on the processing

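The number of genes above 2-fold at 24 h, 3, was 1 to 4 with a slide left out (1 without replicate B or C, 4 without replicate D). At 72 h, 1 gene was above 2-fold, against 0 to 2 with a slide left out (0 without replicate E, 2 without replicate B) and 2 with the median of the slides or with slides scaled to equal spread, where GRE2 joined AAD6. The 4 falls from 48 to 72 h were 2 to 4 with a slide left out (2 without 48 h replicate D or 72 h replicate A). From 24 to 72 h, 1 fall became 2 with the trend along ORF names removed or with scaled slides, AAD3 being added at -0.50 and -0.53. With the replicate block the counts were 0, 4 and 1, as without it. Over all ORFs, 810 changes from 24 to 72 h became 1146 with the replicate block, 1371 with scaled slides, 1483 with the slides of the 2 times alone and 174 without 24 h replicate B. The 56 changes from 24 to 48 h became 31 with those slides alone and 97 without 48 h replicate B, and the 1709 from 48 to 72 h became 1079 without 48 h replicate D. Causes were not tested. No called change of ratio turned its sign, but the means of AAD3 at 24 and 48 h and of AAD15 at 72 h, all near 0, turned above 0 with the trend removed (0.03, 0.31 and 0.06). With a slide left out, the 24 h mean of AAD14 turned above 0 without replicate A, B or D (0.20, 0.01 or 0.06). So did the 48 h mean of AAD3 without replicate B (0.04) and the 72 h mean of AAD15 without replicate A or D (0.01 each). The signal behind each spot was not known.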
